A study of Mus musculus with 4 samples.

Results

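Messenger RNA of 10 core pluripotency genes was followed by RNA sequencing of 4 libraries from mouse embryonic stem cells: the transcription factor genes Pou5f1, Sox2, Nanog and Sall4, the chromatin-associated factor gene Utf1, the paired genes Dppa2 and Dppa4, the RNA-binding protein genes Lin28a and L1td1, and the co-receptor gene Tdgf1. They were taken by symbol (GENCODE M21, build GRCm38) from the 54838 gene identifiers in the count tables, and each symbol matched 1 identifier. Wild-type cells were E14Tg2a.4, an established line of 129/Ola origin. The knock-in cells were the derived line MLC460, in which CRISPR/Cas9 editing put mEGFP, a monomeric green fluorescent protein, on the N-terminal end of p300 made from its own locus. Each line had 2 libraries, which the labels call biological replicates, and both lines grew on gelatin in serum with leukemia inhibitory factor (LIF), a cytokine that sustains self-renewal. All knock-in libraries come from 1 line, and whether it is a single clone is not given in the sources used here. Line and edit cannot be told apart in this design.

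Embryonic stem cells keep the capacity to form all tissues of the embryo through a small network of transcription factors. OCT4 (the product of Pou5f1) and SOX2 bind neighbouring DNA elements as a pair, and together with NANOG they occupy the enhancers of many genes of the undifferentiated state, their own included. The acetyltransferase p300 (Ep300) is a co-activator found at such enhancers. Sall4 encodes a further transcription factor. The other 6 genes act beside these factors, on chromatin, on RNA or in signalling at the cell surface. Most of them are silenced when the cells differentiate.

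Short stretches of promoter sequence show where the paired elements lie close to a start site. RefSeq windows reaching from 250 bases before to 50 bases after a transcription start (GRCm38.p6) were at hand for 7 of the 10 genes, in 9 windows. The genes without an entry were Sall4, Dppa2 and Dppa4. The stretches below are shown because they hold the composite OCT4-SOX2 element or the octamer that OCT4 reads, or, for Pou5f1 and Utf1, a GC box in the genes in which wild-type replicate 2 was higher than wild-type replicate 1 by the most. That feature does not set these 2 genes apart, since windows of Sox2, Lin28a and Tdgf1 hold it too. Capitals mark the match, 5′ to 3′ on the gene's strand. Other matches within a stretch are left in lower case, such as a further GC box that overlaps the one marked in Utf1.
Nanog, chr6:122707401-122707440, plus strand: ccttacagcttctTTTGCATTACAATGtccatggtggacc
Sox2, chr3:34649883-34649915, plus strand: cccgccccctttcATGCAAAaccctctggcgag
Pou5f1, chr17:35505974-35506005, plus strand: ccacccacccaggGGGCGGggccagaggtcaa
Utf1, chr7:139943705-139943736, plus strand: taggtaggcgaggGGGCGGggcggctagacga

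All motifs were searched on both strands. The composite element, CATTGT and ATGCAAA with any 1 base between them and read on the opposite strand in the Nanog stretch, was found in 2 of 32851 windows (0.00609%), and both are overlapping windows of Nanog, where the match begins 75 bases before the nearer start. The octamer core ATGCAAA, which is part of the composite element, was present in 4.63% of windows and, among these genes, in those of Nanog and Sox2. The GC box GGGCGG was present in 35.7% of windows and in those of Pou5f1, Sox2, Utf1, Lin28a and Tdgf1. The windows of Sox2 (66.3% GC) and Lin28a (63.3% GC) were as rich in G and C as those at the first Pou5f1 start (62.7% GC) and at Utf1 (62.0% GC). A match is a description of letters, and no binding was measured here.

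The libraries held 18946731 to 26553998 counts assigned to genes, and the 10 genes took 0.477% to 0.499% of them. The smallest count of any of them in any library was 2182 (Dppa2 in wild-type 2) and the largest 37947 (Tdgf1 in wild-type 1), so all 10 passed the filter on low counts. Wild-type 2 stood apart. Its log2 level relative to the other libraries rose with transcript GC content across genes, with a Spearman coefficient of 0.65 over 15181 genes, against -0.43 to -0.27 for the other libraries. Each library was set against the mean of the rest, so a rise in wild-type 2 by itself pulls the other coefficients down. The wild-type pair differed by a chi-square of 49.1 per degree of freedom, and the knock-in pair by 6.02. Mitochondrial genes held 0.589% of the gene counts in wild-type 2 and 1.04% to 1.27% in the other libraries. Ep300 itself, which does not test the label because the tag leaves the gene's own exons in place, was at 195.6 ± 20.9 CPM (counts scaled to library size) in the knock-in pair and at 209.8 ± 0.41 CPM in the wild-type pair (mean ± SD, n = 2 each), a log2 difference of -0.10 (SE 0.15).

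All 10 genes were strongly expressed in every library. Levels were compared between genes as reads per kilobase of exon, scaled to library size (RPKM, mean ± SD over the 4 libraries). Tdgf1 stood first at 470.3 ± 57.0 RPKM, followed by Utf1 at 359 ± 55.2 RPKM, Nanog at 272 ± 11.5 RPKM and L1td1 at 247 ± 38.5 RPKM. Pou5f1 followed at 236 ± 42.5 RPKM and Sox2 at 214 ± 9.03 RPKM. A lower tier was formed by Dppa4 at 78.7 ± 9.29 RPKM, Lin28a at 70.2 ± 9.06 RPKM, Sall4 at 56.7 ± 4.79 RPKM and Dppa2 at 48.7 ± 6.82 RPKM. Neighbours in this order overlapped in their ranges over the libraries, with the exception of Utf1 against Nanog and of Sox2 against Dppa4. Between 93.1% and 99.5% of the tested genes lay below these 10 genes per kilobase. The place of Pou5f1 depends on how its reads were counted, as described further on: the deposited counts leave out most of them.

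**Figure D1:**
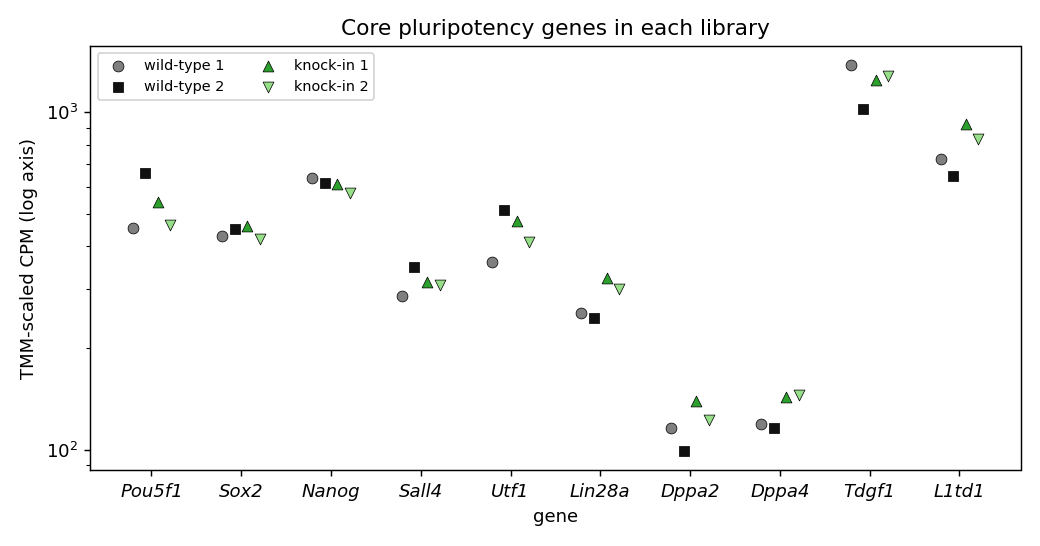
Level of each gene in each library as CPM scaled by the trimmed mean of M-values (TMM), on a log axis; each point is 1 library. Wild-type 2 (squares) is the highest library for Pou5f1, Sall4 and Utf1 and the lowest for Lin28a, Dppa2, Dppa4, Tdgf1 and L1td1.

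No core pluripotency gene passed the test between knock-in and wild-type cells. With edgeR's quasi-likelihood test and Benjamini-Hochberg adjustment over 15191 genes, 0 of the 10 had an adjusted p under 0.05, and 10 genes of the whole table did (0.0658%). At an unadjusted p under 0.05 the count was 1 of 10 (L1td1), beside 10.9% of all genes. DESeq2 also called 0 of the 10, beside 0.81% of all genes, with 1 of the 10 at an unadjusted p under 0.05, beside 9.19%. limma-voom called 0, beside 0.0263% of all genes, with 2 at an unadjusted p under 0.05, beside 11.6%. The median log2 difference (knock-in over wild-type) was 0.048 over the 10 genes and 0.00098 over all genes tested. Both knock-in libraries lay above both wild-type libraries for 4 of the 10 genes (Lin28a, Dppa2, Dppa4 and L1td1), as they did for 23.4% of all genes. For 1 gene, Nanog, they lay below both, as for 23.9% of all genes. In the remaining 5 the groups overlapped. In bulk RNA, fewer cells of a type and less RNA per cell cannot be told apart.

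**Figure D2:**
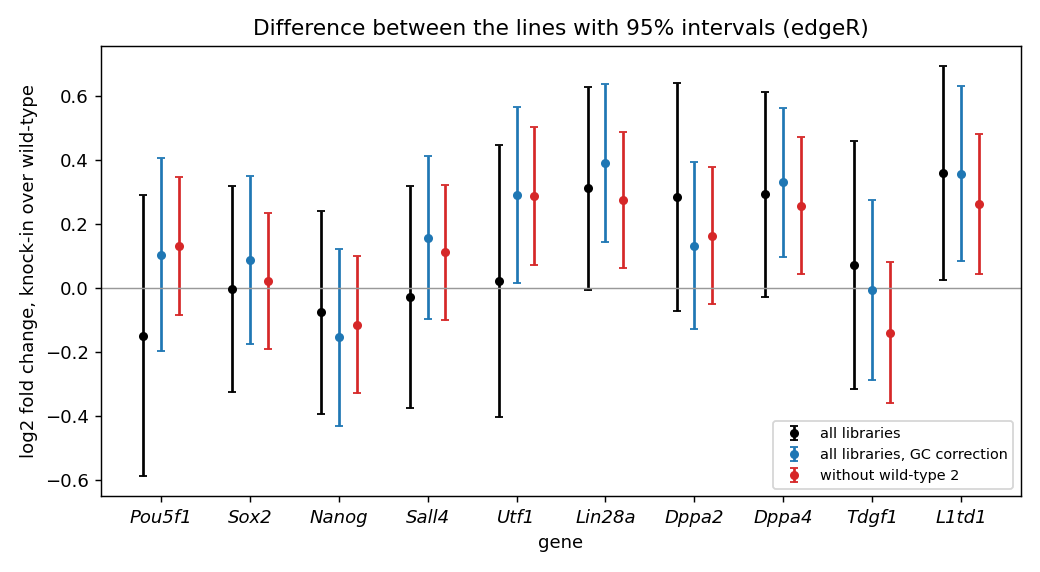
Difference between knock-in and wild-type cells for each gene (log2 scale), with 95% intervals, from all 4 libraries, after GC correction, and without wild-type 2. The values from all 4 libraries and without wild-type 2 lie on opposite sides of 0 for Pou5f1, Sox2, Sall4 and Tdgf1, and on the same side for the other genes.

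Pou5f1 encodes OCT4, the POU-domain factor without which the inner cell mass loses pluripotency. It was measured at 455 CPM in wild-type 1, 660.4 CPM in wild-type 2, 544 CPM in knock-in 1 and 463 CPM in knock-in 2. Wild-type 2 was the highest library and wild-type 1 the lowest, so that both knock-in values fell between them. The wild-type mean was 557 ± 146 CPM and the knock-in mean 503 ± 57.2 CPM (SD, n = 2 for each line). The log2 difference was -0.15 (SE 0.19, 95% interval -0.59 to 0.29, adjusted p = 0.780, edgeR). Without wild-type 2 it was 0.13 (adjusted p = 0.590), and without wild-type 1 it was -0.39 (adjusted p = 0.0018), a comparison in which 32.1% of all genes were called. The sign of the Pou5f1 difference thus turned with the wild-type library left out.

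Sox2 encodes the HMG-box partner of OCT4. It was at 429 and 451 CPM in the wild-type libraries and at 459.8 and 420.1 CPM in the knock-in libraries. The groups overlapped entirely, with means of 440.3 ± 15.7 CPM and 439.9 ± 28.1 CPM. Its log2 difference was -0.0010 with a 95% interval of -0.32 to 0.32, so the data leave room for a change of that size in either direction. Sox2 lies inside the long noncoding gene Sox2ot on the same strand, and the annotated exons of the 2 genes shared 0 bases.

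Nanog encodes a homeodomain factor that supports self-renewal. It was at 637 and 615 CPM in wild-type and at 614 and 575 CPM in knock-in cells. Both knock-in values lay below both wild-type values, but wild-type 2 and knock-in 1 were almost level. The log2 difference was -0.075 (SE 0.14, 95% interval -0.39 to 0.24, adjusted p = 0.851, edgeR), and it stayed below 0 in every alternative tried.

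Sall4, a zinc-finger repressor that works with the core factors and the NuRD complex, was at 285 CPM in wild-type 1, 349 CPM in wild-type 2, 315 CPM in knock-in 1 and 307 CPM in knock-in 2. As for Pou5f1, the wild-type libraries lay on either side of the knock-in pair. The log2 difference was -0.027 (95% interval -0.37 to 0.32), and without wild-type 2 it was 0.11.

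Utf1, whose product sits on chromatin and is largely confined to undifferentiated cells, was at 360.1 CPM in wild-type 1, 514 CPM in wild-type 2, 474 CPM in knock-in 1 and 414 CPM in knock-in 2. The wild-type libraries again enclosed the knock-in pair. The log2 difference was 0.022 (95% interval -0.40 to 0.45, adjusted p = 0.972, edgeR). Leaving out wild-type 2 gave 0.29 (adjusted p = 0.119), and leaving out wild-type 1 gave -0.21 (adjusted p = 0.129).

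Dppa2 and Dppa4 encode SAP-domain proteins that bind chromatin as a pair, and they are neighbours on chromosome 16, at 48303908 to 48319723 and 48283733 to 48294237, 9671 bases apart on the plus strand. Dppa2 was at 116 and 99.1 CPM in the wild-type libraries and at 139 and 122 CPM in the knock-in libraries. Dppa4 was at 119 and 116 CPM in wild-type and at 143 and 145 CPM in knock-in cells. In both genes the knock-in libraries lay above the wild-type libraries, by a clear gap for Dppa4 and a narrow one for Dppa2. Both log2 differences were 0.29, with SE 0.16 and adjusted p = 0.506 for Dppa2 and SE 0.14 and adjusted p = 0.474 for Dppa4 (edgeR). Without wild-type 2 they were 0.17 and 0.26, and without wild-type 1 they were 0.40 and 0.32.

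Lin28a encodes the RNA-binding protein that blocks maturation of the let-7 microRNAs. Its level was 254 CPM in wild-type 1, 246 CPM in wild-type 2, 321 CPM in knock-in 1 and 300.1 CPM in knock-in 2. The wild-type pair agreed closely here, at 250.2 ± 5.51 CPM against 311 ± 15.1 CPM in knock-in cells. The log2 difference of 0.31 (SE 0.14, 95% interval -0.0043 to 0.63) had an unadjusted p of 0.0526 and an adjusted p of 0.458 by edgeR.

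L1td1, an RNA-binding protein gene derived from the first open reading frame of a LINE-1 element, had the largest absolute log2 difference of the 10 genes in the fit on all 4 libraries, though Lin28a exceeded it after GC correction and Utf1 and Lin28a exceeded it without wild-type 2. It was at 726 and 646 CPM in wild-type and at 924 and 836 CPM in knock-in cells, with every knock-in value above every wild-type value. The log2 difference was 0.36 (SE 0.15, 95% interval 0.025 to 0.69), with an unadjusted p of 0.0378 and an adjusted p of 0.438 by edgeR. Without wild-type 2 it was 0.26 (adjusted p = 0.185), and without wild-type 1 it was 0.45 (adjusted p = 0.00058).

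Tdgf1 encodes CRIPTO, the cell-surface co-receptor through which Nodal reaches activin receptors. It was at 1378 CPM in wild-type 1, 1025 CPM in wild-type 2, 1246 CPM in knock-in 1 and 1283 CPM in knock-in 2. Here wild-type 2 was the low library, opposite to Pou5f1 and Utf1, and the knock-in values lay between the wild-type values. The log2 difference was 0.073 (95% interval -0.31 to 0.46), and it was -0.14 without wild-type 2 and 0.30 without wild-type 1.

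Calls among the 10 genes turned on the wild-type libraries. Without wild-type 2, 0 of the 10 genes passed and 4.39% of all genes did. Without wild-type 1, 6 of the 10 passed: Lin28a, Dppa2, Dppa4, Tdgf1 and L1td1 were higher in knock-in cells, beside 19% of all genes, and Pou5f1 was lower, beside 13.1%. In that comparison the lone wild-type library is the one that stands apart, and in each of these fits the spread comes from the knock-in pair alone and the lone library is assumed to vary like it.

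The gap between the wild-type libraries differed in sign and size from gene to gene. The ratio of wild-type 2 to wild-type 1 was 1.45 for Pou5f1, 1.43 for Utf1 and 1.22 for Sall4, 1.05 for Sox2, and between 0.965 and 0.971 for Nanog, Lin28a and Dppa4. It was 0.890 for L1td1, 0.856 for Dppa2 and 0.744 for Tdgf1. Over 1.3-fold apart were 3 of the 10 genes (Pou5f1, Utf1 and Tdgf1), beside 32.4% of the 8951 genes of at least 10 CPM. In the knock-in pair the count was 0 of 10, beside 2.5% of those genes, and the widest gap was 1.17-fold, in Pou5f1. Wild-type 2 was the highest of the 4 libraries for 3 of the 10 genes and for 33.4% of all genes, and the lowest for 5 of the 10 and for 37.3% of all genes. Wild-type 1 was the lowest library for the same 3 genes in which wild-type 2 was the highest (Pou5f1, Sall4 and Utf1), and for 20.1% of all genes.

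The position of wild-type 2 was set against the GC content of the transcripts. The transcripts of Utf1 (63.5% GC), Pou5f1 (57.6% GC) and Sall4 (53.8% GC) are the richest in GC of the 10, and in log2 CPM wild-type 2 lay 0.31, 0.44 and 0.21 above the mean of the other 3 libraries, which include the knock-in pair. Tdgf1 (45.3% GC) and Dppa2 (43.6% GC) are the poorest, and wild-type 2 lay lower, at -0.34 for both. Across the 10 genes the Spearman coefficient of this deviation with GC content was 0.83, a description of points that share the same 4 libraries. A curve of deviation on GC content fitted over all genes gave 0.35 for Utf1 and 0.31 for Pou5f1, which left -0.036 and 0.14. The median absolute deviation went from 0.28 to 0.11 over the 10 genes when the curve was subtracted, and from 0.31 to 0.20 over all genes. Nanog went the other way: its deviation was 0.017, the curve gave -0.23 for its 45.8% GC, and 0.25 was left. Lin28a (50.1% GC) went from -0.24 to -0.26, Dppa4 (49.0% GC) from -0.22 to -0.18 and L1td1 (47.8% GC) from -0.35 to -0.24, so these 3 genes remained below the other libraries.

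Against wild-type 1 alone, a curve on GC content took up less of the gap in the GC-rich genes. The log2 gap of Pou5f1 was 0.54, of which the curve gave 0.23 and left 0.31. This gap is from the deposited counts, which leave out most Pou5f1 reads. By the strand-specific columns described further on, the ratio of the wild-type libraries was 1.25 in place of 1.45. The gap of Utf1 was 0.51, of which 0.24 was left, and that of Sall4 was 0.29, of which 0.18 was left. The gap of Tdgf1 was -0.43, and -0.12 was left. For Dppa2 the sign turned, from -0.22 to 0.18, and for Nanog it went from -0.051 to 0.22. Lin28a and L1td1 were left with 0.0018 and -0.0027, so that for these genes the wild-type libraries were almost level after the curve was subtracted.

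**Figure D3:**
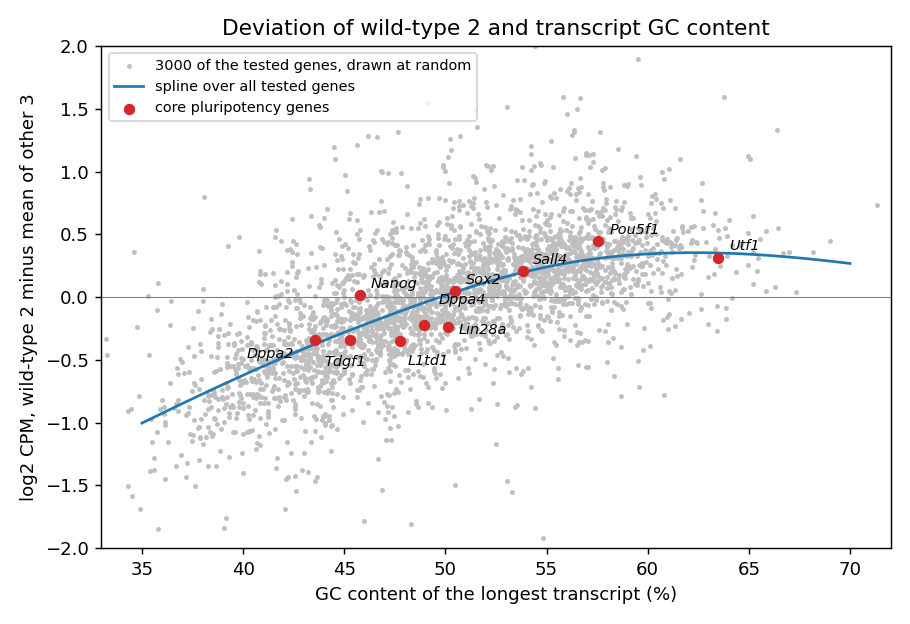
Deviation of wild-type 2 from the mean of the other 3 libraries (log2 CPM) against transcript GC content (percent), with the 10 genes labelled and the curve fitted over all tested genes. Utf1, Pou5f1 and Sall4 lie at the high-GC end and above 0, and Dppa2 and Tdgf1 at the low-GC end and below 0.

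With each library corrected for GC content, 0 of the 10 genes passed, beside 1.18% of all genes. In corrected CPM, Utf1 was at 363 and 428 in wild-type and at 512 and 457 in knock-in cells, so that the groups no longer overlapped. Its corrected log2 difference was 0.29 (95% interval 0.016 to 0.57, adjusted p = 0.260, edgeR). Pou5f1 was at 453 and 563 in wild-type and at 596 and 497 in knock-in cells, still overlapping, with a log2 difference of 0.11 (adjusted p = 0.739). Lin28a was at 243 and 244 in wild-type and at 334 and 305 in knock-in cells, with a log2 difference of 0.39 (95% interval 0.15 to 0.64, adjusted p = 0.114). L1td1 was at 686 and 685 against 933 and 825, with a log2 difference of 0.36 (adjusted p = 0.178). After correction the wild-type libraries were almost level in L1td1 and in Lin28a, where they had agreed closely before, and the corrected knock-in values remained above them. In Nanog the wild-type libraries moved apart, to 595 and 694, against 606 and 553 in knock-in cells. Its corrected log2 difference was -0.15 (adjusted p = 0.567, edgeR). For Dppa4 the corrected log2 difference was 0.33 (adjusted p = 0.147), while that of Dppa2 was 0.13 (adjusted p = 0.598) and its groups overlapped. After correction 5 of the 10 genes had both knock-in libraries above both wild-type libraries (Sall4, Utf1, Lin28a, Dppa4 and L1td1), beside 31.6% of all genes, and 0 had them below, beside 18.6%. The median log2 difference was then 0.15 over the 10 genes and 0.058 over all genes.

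Most reads that overlapped exons of Pou5f1 were left out of its deposited count. The counting set aside as ambiguous any read that overlapped exons of more than 1 gene, and without regard to strand this includes antisense genes. Pou5f1 (chromosome 17, 35506018 to 35510772, plus strand) shares 317 exon bases, 14.1% of its exon length, with the antisense gene Gm19553. Gm19553 has 177 further exon bases outside this overlap. The shared blocks run from 35509077 to 35509223, all of it coding sequence of Pou5f1, and from 35510382 to 35510551. Counts in the deposited unstranded column were 12516, 14544, 13241 and 8644 in wild-type 1, wild-type 2, knock-in 1 and knock-in 2. The 2 strand-specific columns together held 35578, 35646, 35763 and 24449 counts for Pou5f1. The unstranded column therefore lacked 64.8%, 59.2%, 63.0% and 64.6% of them. Gm19553 received 0, 0, 0 and 2 counts in the unstranded column, and 23062, 21102, 22524 and 15807 in the strand-specific columns. The unstranded column would hold reads that touched only the 177 bases outside the overlap. Within the shared bases, reads of the 2 genes cannot be told apart in these libraries, whose labels name no kit that marks the strand.

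Lin28a and Sall4 were touched less. Lin28a shares 234 exon bases (5.86%) with the antisense gene Gm13061 and lacked 16.3% to 21.8% of its both-strand counts. Sall4 shares 526 exon bases (9.50%) with the antisense gene Gm14261 and lacked 6.17% to 7.28%. In the other 7 genes at most 0.0099% was lacking.

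**Figure D4:**
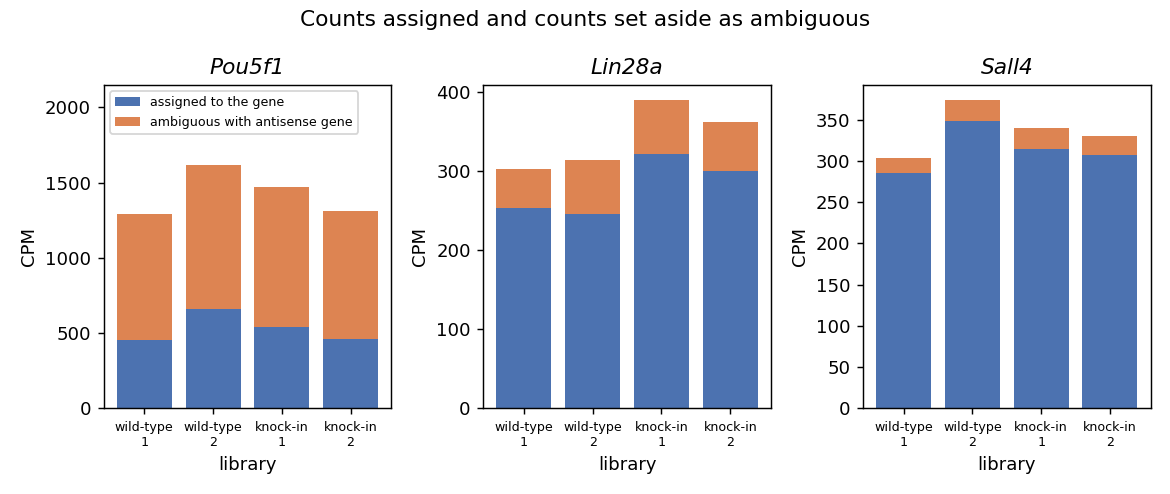
Stacked bars of counts assigned to the gene and counts set aside as ambiguous with an antisense gene (CPM), for Pou5f1, Lin28a and Sall4 in each library. For Pou5f1 the counts set aside exceed those assigned in every library, and for Lin28a and Sall4 they are the smaller part.

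On the same CPM scale, the strand-specific columns put Pou5f1 at 1292, 1619, 1468 and 1309 CPM in wild-type 1, wild-type 2, knock-in 1 and knock-in 2, which is 2.68 times the unstranded level. Wild-type 2 remained the highest library, but its ratio to wild-type 1 was 1.25 in place of 1.45. Counts set aside amounted to 838, 958, 925 and 846 CPM, a narrower spread than that of the counts kept. Per kilobase, Pou5f1 then had a mean of 633 RPKM and stood first of the 10 genes in place of the fifth. The fit on these counts called 0 of the 10 genes, beside 0.0824% of all genes, and gave Pou5f1 a log2 difference of -0.086 (SE 0.16, adjusted p = 0.861, edgeR), and 0.088 (adjusted p = 0.760) without wild-type 2. Lin28a was at 303, 315, 390.0 and 362 CPM by these columns, with a log2 difference of 0.26 (adjusted p = 0.507). Its knock-in libraries still lay above its wild-type libraries.

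The division of reads between the strand-specific columns was also read. With no strand marked, an even division of each gene's reads between the columns is the simplest reference. In wild-type 2 the exact 95% binomial (Clopper-Pearson) interval of the share in the reverse column missed 50% for 5 of the 10 genes, beside 18% of 4764 genes of at least 10 CPM without ambiguous counts. These were Sox2 at 52.5% (51.5% to 53.5%), Dppa2 at 54.5% (52.4% to 56.6%), L1td1 at 53.1% (52.3% to 53.9%), Utf1 at 48.8% (47.9% to 49.7%) and Tdgf1 at 48.4% (47.8% to 49.1%). The count was 0 of 10 in wild-type 1, 1 of 10 in knock-in 1 (Sox2) and 2 of 10 in knock-in 2 (Lin28a and L1td1), beside 13.7%, 13% and 13.1% of genes. Some of the 10 genes have ambiguous counts, which the genes behind these percentages do not. Those genes also reach down to 10 CPM, while the 10 genes were at 99.1 CPM or more in every library. Intervals narrow as counts rise, so the same imbalance misses 50% more often in abundant genes. The comparison was not matched for level. Over those genes the SD of the share was 2.65 percentage points in wild-type 2 and 2.60 in knock-in 2. It was 2.15 in wild-type 1 and 2.26 in knock-in 1. That SD includes counting error, which depends on depth, and knock-in 2 held the fewest counts. The SD beyond counting error was 1.78 in wild-type 2, 1.61 in knock-in 2 and 1.36 in wild-type 1 and in knock-in 1. Chi-square per degree of freedom was 2.31 in wild-type 2, 1.94 in wild-type 1, 1.90 in knock-in 1 and 1.89 in knock-in 2. By this last measure, which also depends on depth, wild-type 2 alone stood apart. By the SD beyond counting error, knock-in 2 lay between wild-type 2 and the other libraries. The intervals cover counting error only, and copies made by PCR are not independent molecules.

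**Figure D5:**
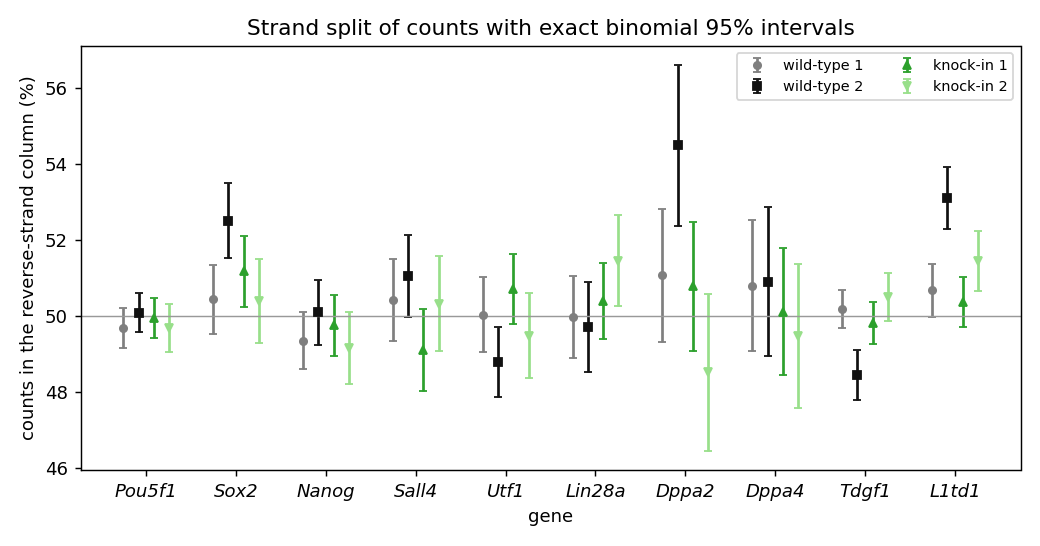
Percent of each gene's strand-specific counts in the reverse column, by library, with exact 95% binomial intervals and a line at 50%. In wild-type 2 the points range from 48.4% for Tdgf1 to 54.5% for Dppa2.

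Other genes of the same circuits were read from lists. Of 137 distinct genes tested on these lists, 0 passed with edgeR, 23 had an unadjusted p under 0.05 (10.9% of all genes did), DESeq2 called 1 and limma-voom 0. After GC correction 5 passed, beside 1.18% of all genes, and without wild-type 2, 14 passed, beside 4.39%. Among 28 other regulators of the pluripotency network the median log2 difference was 0.032. Trim28, a co-repressor that silences retroelements, was at 2464 and 3359 CPM in wild-type and at 2942 and 2737 CPM in knock-in cells. Its knock-in values lay between the wild-type values, as for Pou5f1. Esrrb, an orphan nuclear receptor of naive cells, had a log2 difference of 0.14 (SE 0.15). Among 22 pluripotency-restricted genes and targets of OCT4 and SOX2 the median was -0.019 (0.064 after GC correction and 0.049 without wild-type 2), with -0.12 for Slc2a3 (a glucose transporter gene beside Nanog) and 0.16 for Dppa5a. After GC correction 1 of the 22 passed, Tdh, the threonine dehydrogenase gene that feeds one-carbon metabolism, at 0.66 (adjusted p = 0.019, edgeR).

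The let-7 pathway around Lin28a had a median log2 difference of 0.11 over 20 tested genes, 17 of them above 0, as were 50.1% of all genes. Without wild-type 2 the median was 0.048, and the median log2 gap of wild-type 2 to wild-type 1 over the list was -0.16. Its most abundant members were Igf2bp1, at 0.085 (SE 0.14), and Hmga1, at 0.34 (SE 0.14). After GC correction 2 of the 20 passed, both higher in knock-in cells and both RNA targets of let-7: Hmga1 at 0.58 (adjusted p = 0.048, edgeR) and Igf2bp3 at 0.57 (adjusted p = 0.029). Igf2bp3 was at 47.4 and 35.6 CPM in wild-type and at 64.2 and 64.9 CPM in knock-in cells, with no overlap. The microRNAs themselves were not analysed here.

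The Nodal pathway around Tdgf1 had a median of -0.038 over 14 tested genes, which turned to 0.092 after GC correction and to 0.093 without wild-type 2. Hspa5, whose chaperone product binds CRIPTO at the cell surface, had a log2 difference of 0.19 (SE 0.14), and Lefty2, a secreted Nodal inhibitor, 0.16 (SE 0.16). Smad3, a transducer of Nodal and activin signals, was at 32.3 and 33.4 CPM in wild-type and at 15.9 and 17.9 CPM in knock-in cells. Both knock-in values lay far below both wild-type values, and the wild-type libraries were almost level. Its log2 difference was -0.96 (SE 0.17, adjusted p = 0.126, edgeR), and it passed after GC correction at -0.79 (adjusted p = 0.0084).

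Paralogs of the 10 genes, which could share reads with them, had a median of -0.078 over 15 tested genes, which turned to 0.089 after GC correction and to 0.0067 without wild-type 2. The most abundant were Sall1 at 0.27 (SE 0.15) and Pou2f1 at 0.20 (SE 0.20). Genes of the 2-cell-like state, which DPPA2 and DPPA4 help to activate, had a median of 0.43 over 11 tested genes. Of these 11, 10 were above 0, as were 50.1% of all genes. The median log2 gap of wild-type 2 to wild-type 1 over the list was -0.29. Zscan4c was at 15.3 and 11.99 CPM in wild-type and at 20.2 and 16.1 CPM in knock-in cells, and Zscan4a at 13.4 and 11.8 CPM against 17.9 and 16.0 CPM. Neither passed. The list's median was 0.32 after GC correction and 0.26 without wild-type 2.

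Markers of other cell types ranged widely. Summed levels were 392 to 435 CPM for 9 formative and primed epiblast genes, most of it from Dnmt3a and Dnmt3b, with Fgf5 at 2 to 3 counts per library. Primitive endoderm markers summed to 19.6 and 18.6 CPM in wild-type and to 14.7 and 14.5 CPM in knock-in cells, with Foxa2 at 0 to 3 counts. Other markers of that list had more reads, such as Gata4 at 25 to 30 counts and Hnf4a at 46 to 133 counts. Trophoblast markers summed to 84.2 to 92.3 CPM, most of it from Tfap2c and Tead4, with Cdx2 at 1 to 3 counts and Eomes at 123 to 273 counts. The median log2 difference over the 7 tested trophoblast genes was -0.49, and -0.25 after GC correction. Without that correction 2 of the 7 were above 0, as were 50.1% of all genes. Mesoderm markers summed to 3.60 and 4.04 CPM in wild-type and to 3.28 and 2.73 CPM in knock-in cells, with Hand2 and Foxf1 at 0. Both knock-in sums thus lay below both wild-type sums for primitive endoderm and mesoderm, and also for the fibroblast and feeder markers below. For single genes that position was held by 23.9% of all genes. The mesoderm sums rest on few reads, with no marker above 35 counts in any library and T at 9 to 13 counts. Neuroectoderm markers summed to 152, 236, 165 and 152 CPM, with wild-type 2 the highest and Tubb3 making up most of the sum. Fibroblast and feeder markers summed to 35.8 and 38.8 CPM in wild-type and to 21.9 and 23.7 CPM in knock-in cells, with Lum and S100a4 at 0 in all 4 libraries. Thy1, at 240 to 454 counts, and Pdgfrb, at 170 to 456 counts, held the most reads of that list. Of the marker lists, 0 genes passed without GC correction on all 4 libraries. After GC correction 1 passed, the trophoblast marker Tfap2c, at 0.57 (adjusted p = 0.034, edgeR). Without wild-type 2 it passed at 0.42, and Otx2 (-0.62), Hnf4a (-1.11), Amn (-1.20) and Pdgfrb (-0.96) passed as lower in knock-in cells. The part of these markers in the differences of the 10 genes was not tested.

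The nearest tested genes on either side of the 10 genes numbered 18 besides Dppa2 and Dppa4 themselves, and 0 passed, with edgeR adjusted p from 0.196 to 0.907. Atp9a, which lies 5923 bases from Sall4, had a log2 difference of -0.80 (SE 0.19) and passed without wild-type 2 at -0.58 (adjusted p = 0.00012). H2-Q10, the neighbour before Pou5f1, passed in that fit too, at -0.95 (adjusted p = 0.042), so that 2 of the 18 did, beside 4.39% of all genes. Sall4 and Pou5f1 had 0.11 and 0.13 in the same fit.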

How the data were processed

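The deposited tables hold raw counts of reads per gene. The authors made them with the STAR aligner, per the submitters' processing notes, which name Trim Galore, STAR 2.5.3a and GRCm38 (mm10). The release of the annotation is not given in the sources used here, and 54809 of the 54838 identifiers matched GENCODE M21. Libraries were made from Trizol RNA with an Illumina TruSeq RNA kit, per the labels. Summary rows that name no gene stayed out of library sizes and tests: ambiguous reads were 5.96% to 6.38% and multimapping reads 3.80% to 4.46% of reads.

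Tests used the unstranded column and edgeR 4.0.16 (R 4.3.3): TMM scaling, filterByExpr (minimum count 10), genotype as the single term, 15191 genes, adjusted p threshold 0.05. SE is the absolute log2 difference over the square root of F. CPM are TMM-scaled, and RPKM divide by the union of exons. GC correction used a natural spline (5 degrees of freedom) of each library's log2 CPM deviation on the GC content of the longest transcript as an offset. DESeq2 1.42.0, limma 3.58.1, other scalings and filters, left-out libraries, a replicate block and the strand-specific columns were alternatives. The fit was checked on simulated data. p-values measure only the spread between these libraries.

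The genes and lists were chosen with earlier results of these data known. Named genes were the 10 themselves, up to 3 called genes or else the 2 most abundant of each list, and the nearest tested gene on each side. Tdh, Igf2bp3, Smad3, Tfap2c, Otx2, Hnf4a, Amn and Pdgfrb were named after their values were seen. For the marker lists, the summed level and defining markers are given.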

Additional observations from a re-analysis of the deposited data

How the results depend on the processing

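The count of 10 called genes moved over 1.5-fold under several settings: 6 with no scaling beyond the total count, 354 with no filter on low counts, 123 with DESeq2, 4 with limma-voom, 180 with GC correction, 646 with GC correction without wild-type replicate 2, and 16 to 5015 when 1 library was left out. It was 151 for the strand-specific columns with GC correction and 817 for them without wild-type replicate 2, both chosen after seeing the data. Of the 10 core genes, 0 were called in every setting except without wild-type replicate 1, so that the leave-one-out counts ran from 0 to 6. The causes were not tested.

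The deviations of same-numbered libraries had a correlation of -0.12 across genes. The wild-type pair differed by a chi-square of 49.1 per degree of freedom and the knock-in pair by 6.02. Because the pairs were so unequal, this correlation cannot decide whether same-numbered libraries share more than a number, which was not tested further. With the replicate number as a block 197 genes were called, and 403 with GC correction as well; neither called a core gene. Crossed pairing, added after seeing the data, called 509.

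Nanog stayed below 0, and Lin28a, Dppa2, Dppa4 and L1td1 stayed above 0, in every setting. Signs turned for the others. Sox2 was 0.0058 with DESeq2 size factors and with DESeq2, 0.089 with GC correction, 0.088 with GC correction and block, 0.16 with GC correction without wild-type 2, 0.080 for the strand-specific columns with GC correction, 0.020 for them without wild-type 2, and -0.088 to 0.067 leaving out 1 library, where 0.022 was without wild-type 2. Utf1 was -0.046 with no scaling, -0.0020 with the stricter filter, -0.21 without wild-type 1 and -0.10 without knock-in 1. In the order GC correction, GC correction with block, GC correction without wild-type 2, strand-specific columns with GC correction, strand-specific columns without wild-type 2, and without wild-type 2, Pou5f1 was 0.11, 0.11, 0.28, 0.17, 0.088 and 0.13. In the same order Sall4 was 0.16, 0.16, 0.26, 0.16, 0.13 and 0.11, and Tdgf1 was -0.0046, -0.0033, -0.050, -0.0023, -0.14 and -0.14. Leaving out 1 library in turn gave -0.39 to 0.13 for Pou5f1, -0.16 to 0.11 for Sall4, -0.21 to 0.29 for Utf1 and -0.14 to 0.30 for Tdgf1. With the longest transcript as length, Pou5f1 was at 389 RPKM and second after Tdgf1 at 638 RPKM.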
